A study of Rattus norvegicus with 24 samples.

Results

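Bmp6, a secreted ligand of the bone morphogenetic protein (BMP) family, and 8 genes that act with it were measured in the dentate gyrus of aged and young male Long-Evans rats. The genes were every probe set of the array annotated with exactly 1 of the symbols Bmp6, Bmp4, Bmpr1a, Bmpr2, Smad1, Id1, Id2, Id3 and Nog. They are 9 of 14217 genes that the annotation names singly, and 15 probe sets represent them. Bmp6 was selected because its level differed between aged and young rats in these same arrays, so its differences from young rats are given as a description, with no p-value.

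Total RNA from the microdissected dentate gyrus was hybridised to Affymetrix whole-genome rat expression arrays, and each array is labelled as its own biological replicate. The groups were aged rats with impaired spatial learning (7 arrays, 24 to 26 months old), aged rats with unimpaired spatial learning (6 arrays, 24 to 26 months old) and young rats (8 arrays, 6 months old). Learning was scored by swimming to a hidden platform (Morris water maze), and unimpaired aged rats are those that scored within the range of the young. No rat carried a transgene or received a treatment according to the labels, all were housed singly, and tissue was taken 2 weeks after the behavioural tests.

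BMP ligands bind pairs of type I and type II serine/threonine kinase receptors, such as Bmpr1a and Bmpr2, which phosphorylate Smad1 and its close relatives. The phosphorylated Smad proteins enter the nucleus with Smad4 and switch on target genes, among them the Id genes, whose products block basic helix-loop-helix transcription factors. Noggin, the product of Nog, is secreted and keeps ligands from their receptors. In the dentate gyrus of adult mice BMP signalling is known for holding neural stem cells in quiescence, and Noggin for opposing it. The arrays measured RNA, so neither protein nor Smad phosphorylation was measured.

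The starts of Bmp6, the ligand that differed, and of Id1 and Id2, members of the target gene family that BMP signalling switches on, are shown because BMP-activated Smad complexes bind short GC-rich motifs in the promoters of their targets. Sequences are RefSeq's for the GRCr8 assembly, 250 bases before to 50 bases after 1 annotated start, written 5′ to 3′ on the gene's own strand. Capitals mark matches to the motifs searched, which were GGCGCC, GCCGNCGC, GTCTAGAC and CAGAC on both strands.
Bmp6, chr17:26675212-26675511, minus strand: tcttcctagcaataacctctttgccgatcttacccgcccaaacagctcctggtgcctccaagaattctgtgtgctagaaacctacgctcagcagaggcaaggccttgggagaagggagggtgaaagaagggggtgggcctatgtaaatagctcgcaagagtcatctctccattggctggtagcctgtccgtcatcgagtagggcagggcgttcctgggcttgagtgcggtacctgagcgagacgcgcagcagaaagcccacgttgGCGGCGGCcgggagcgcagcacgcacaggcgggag
Id1, chr3:161671314-161671613, plus strand: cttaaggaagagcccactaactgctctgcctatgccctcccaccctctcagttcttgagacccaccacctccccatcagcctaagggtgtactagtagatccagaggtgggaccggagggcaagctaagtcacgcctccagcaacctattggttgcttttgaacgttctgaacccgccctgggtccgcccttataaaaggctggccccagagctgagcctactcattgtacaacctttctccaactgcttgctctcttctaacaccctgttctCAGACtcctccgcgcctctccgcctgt
Id2, chr6:47470946-47471245, minus strand: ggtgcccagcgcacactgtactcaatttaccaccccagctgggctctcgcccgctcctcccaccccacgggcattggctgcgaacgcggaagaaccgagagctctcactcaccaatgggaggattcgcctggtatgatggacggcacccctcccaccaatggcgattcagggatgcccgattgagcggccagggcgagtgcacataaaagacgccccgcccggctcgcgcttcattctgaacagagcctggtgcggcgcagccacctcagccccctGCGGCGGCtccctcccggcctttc
The Bmp6 window held 1 match to GCCGNCGC, read on the opposite strand, whose first base lies at position 16 after the start. The Id2 window held 1 match to the same motif at position 27, and the Id1 window held 1 match to CAGAC at position 24. Of 33469 rat promoter windows of 300 bases, 11.0% held GGCGCC, 9.34% held GCCGNCGC, 0.197% held GTCTAGAC and 50.1% held CAGAC. The windows of Id3, Smad1, Bmpr2 and Bmpr1a held no match, the Nog window held 1 match each to GGCGCC, GCCGNCGC and CAGAC, of which the first 2 overlap, and the Bmp4 window held 2 matches to CAGAC. A match is only a run of letters, and binding was not measured. The chosen start of Bmp6 lies inside the outer bounds of its gene model, which spans chr17:26523704-26785558.

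Of the 15 probe sets, 9 passed the filter for testing, a log2 level above 4 on at least 6 arrays. They stand for 7 genes. The 6 others lay between 1.84 and 3.67 on every array: 1 each for Bmp4, Bmpr1a, Bmpr2 and Smad1, and 2 for Bmp6. Bmp4, a ligand much studied in the hippocampal niche, and Bmpr1a, a type I receptor, therefore have no measured level here. Levels below are deposited log2 GCRMA values, and a level of one probe set cannot be set against that of another.

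The arrays were closely alike in scale, with medians of 3.77 to 3.84, 48.3% to 48.8% of probe sets above a log2 level of 4, and pairwise correlations within groups of 0.996 to 0.998 across probe sets. Granule neuron markers were abundant: 9 of 10 on the array were measured, with a mean log2 level of 9.85 to 10.17 in impaired, 9.88 to 10.10 in unimpaired and 9.63 to 10.10 in young rats. Prox1, the transcription factor that defines dentate granule neurons, averaged 10.80, 10.79 and 10.85 in impaired, unimpaired and young rats. Single markers differed more: Dsp averaged 8.14 and 7.94 in impaired and unimpaired rats, against 7.34 in young rats, and C1ql3 averaged 12.27 and 12.28, against 12.55 in young rats. Pdyn (7.87 and 7.96, against 7.41 on 1 probe set) and Plk5 (8.49 and 8.64, against 8.21) were on the side of Dsp, and Calb1 (11.29 and 11.20, against 11.41) on that of C1ql3. Of 16 meningeal fibroblast markers on the array, 4 passed the filter (Ptgds, Mgp, Igf2 and Igfbp2), and their mean log2 level set 4 arrays apart. It was 10.4, 9.78 and 8.95 in impaired replicates 2, 3 and 7 and 8.41 in young replicate 5, and the 17 other arrays lay between 7.06 and 7.86. On those 4 arrays 5 to 10 of the 16 markers were above 4, against 4 on each other array, and Col1a1, Col3a1, Col6a3, Foxc1, Slc22a6 and Slc47a1 were above 4 on none.

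Bmp6 was higher in both aged groups than in young rats on its brighter measured probe set, and less clearly so on its dimmer one, described below. For its brighter probe set, 1388920_at, the lowest, median and highest log2 levels were 7.55, 7.96 and 8.37 in the 7 impaired rats. They were 7.56, 7.66 and 7.88 in the 6 unimpaired rats, against 6.93, 7.07 and 7.59 in the 8 young rats. Every aged array lay above the young mean, and 5 impaired and 5 unimpaired arrays lay above every young array. Young replicate 5, at 7.59, was the only young array above the lowest aged one, and the next young array stood at 7.34. Because a dissected piece of tissue holds many cell types, a larger share of Bmp6-expressing cells and more Bmp6 RNA per cell cannot be told apart, here or for any gene below.

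**Figure D1:**
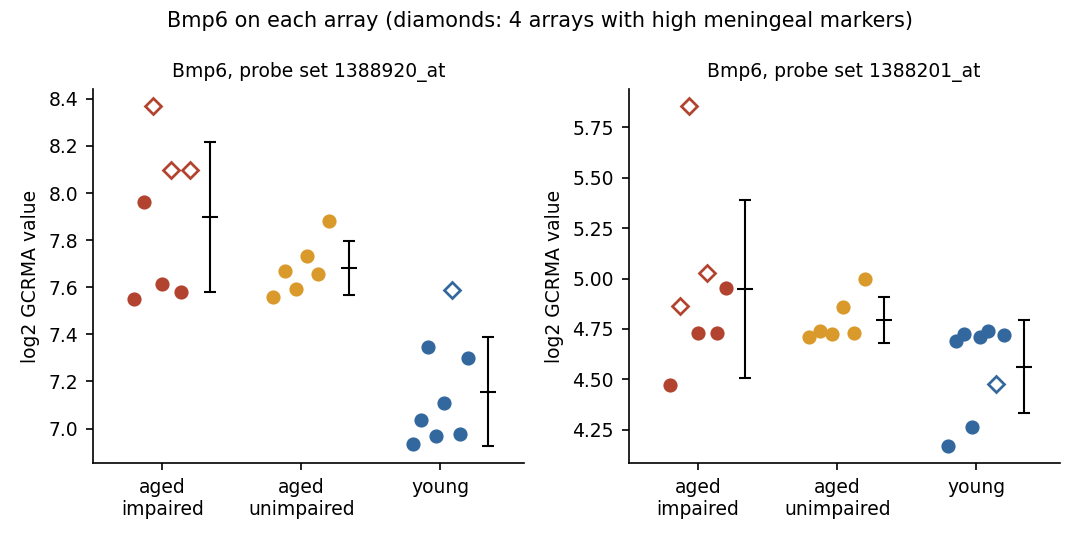
Log2 level of the 2 measured Bmp6 probe sets on each array, by group, with the group mean and SD as the bar to the right of the points. On 1388920_at the impaired arrays run from 7.55 to 8.37 and the unimpaired from 7.56 to 7.88, above all young arrays but replicate 5 (open diamond, 7.59). Open diamonds are impaired replicates 2, 3 and 7 and young replicate 5, and on 1388201_at impaired replicate 2 stands alone at 5.86.

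Means were 7.90 ± 0.32 in impaired (SD, n = 7), 7.68 ± 0.12 in unimpaired (n = 6) and 7.16 ± 0.23 in young rats (n = 8). The log2 difference was 0.74 ± 0.12 (SE) in impaired minus young rats, a 1.67-fold higher level, and 0.52 ± 0.12 in unimpaired minus young rats, a 1.44-fold higher level. Taking both aged groups together, weighted equally, it was 0.63 ± 0.10 or 1.55-fold. Both comparisons use the same young arrays.

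Between the aged groups, a comparison on which Bmp6 was not chosen, the difference was 0.21 ± 0.13 in impaired minus unimpaired rats, with a 95% confidence interval of -0.05 to 0.48. It did not pass the threshold of an adjusted p below 0.05 (limma adjusted p = 0.445 over 15177 probe sets). The impaired range took in the whole unimpaired range, and 4 impaired arrays, at 7.96, 8.10, 8.10 and 8.37, lay above the highest unimpaired array.

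The 3 highest of these impaired arrays, replicates 2, 7 and 3, are the ones with high meningeal markers, and young replicate 5 with the highest young Bmp6 level is the other such array. Without those 4 arrays Bmp6 averaged 7.68 ± 0.19 in impaired (n = 4), 7.68 ± 0.12 in unimpaired (n = 6) and 7.10 ± 0.16 in young rats (n = 7). All remaining aged arrays, from 7.55, then lay above all remaining young arrays, which reached 7.34. This follows from leaving out young replicate 5, the only young array that had stood above the lowest aged one. The arrays left out hold the highest Bmp6 levels of the impaired and young groups, so leaving them out lowers both means. The difference from young was 0.58 ± 0.09 in impaired and 0.59 ± 0.08 in unimpaired rats, and impaired minus unimpaired was -0.00 ± 0.10 (limma adjusted p = 0.988). With group means removed, Bmp6 and the meningeal markers correlated at r = 0.79 and rho = 0.74 over all 21 arrays (permutation adjusted p = 0.00084 over 12 marker lists), the highest of the 12 lists, and at 0.70 without the 2 arrays farthest from the Bmp6 median (permutation adjusted p = 0.0131). These values include the 4 arrays that stand apart. Over the 17 other arrays r was 0.46 and rho 0.40 (permutation p = 0.116, adjusted over 12 lists 0.347).

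**Figure D2:**
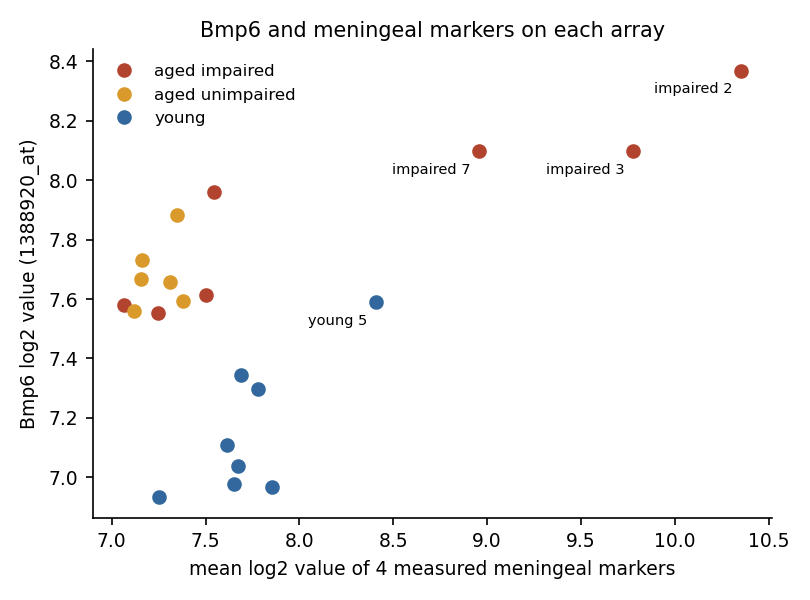
Log2 level of Bmp6 on 1388920_at (vertical) against the mean log2 level of the 4 measured meningeal markers (horizontal) for each of the 21 arrays, coloured by group. Impaired replicates 2, 3 and 7 lie at 8.95 to 10.4 on the horizontal axis and at 8.10 to 8.37 for Bmp6, young replicate 5 lies at 8.41 and 7.59, and the 17 other arrays lie between 7.06 and 7.86 with the aged above the young in Bmp6.

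Of the 11 other marker lists, 1 passed a test of its correlation with Bmp6 within groups, that of progenitors and immature neurons. The 4 measured of 13 markers of progenitors and immature neurons had a mean log2 level of 9.35 to 9.61 in impaired and 9.33 to 9.53 in unimpaired rats, against 9.63 to 9.96 in young rats, so the aged and young arrays did not overlap. Unimpaired rats also lay wholly below young rats in endothelial markers (6.52 to 6.69, against 6.70 to 7.02) and in oligodendrocyte markers (9.04 to 9.49, against 9.52 to 9.90), where impaired rats, at 6.69 to 7.16 and 9.33 to 9.85, overlapped the young. The impaired rats lay just above the unimpaired rats in endothelial markers (lowest 6.688, against a highest of 6.687). Over all tested probe sets 33.95% were on the higher side in unimpaired minus young rats (median difference -0.04). In impaired minus unimpaired rats 72.4% were (median 0.05), and in all aged minus young rats 43.2% (median -0.01). How often probe sets at large separate the groups without overlap was not counted. Of the progenitor list, Dcx, Sox11, Eomes, Mki67, Nes, Top2a, Calb2, Dpysl3 and Igfbpl1 were not above 4 on enough arrays to be measured. Its mean therefore rests on Sox4, Neurod1, Tubb2b and Tubb3 alone. With group means removed this list and Bmp6 correlated at r = -0.70 and rho = -0.62 over 21 arrays (permutation adjusted p = 0.00888 over 12 lists). The correlation was -0.62 (permutation adjusted p = 0.068) without the 2 arrays farthest from the Bmp6 median, impaired replicate 2 and young replicate 6, and -0.59 (permutation adjusted p = 0.158) without the 4 meningeal arrays. Endothelial markers gave r = 0.62 (permutation adjusted p = 0.0508) and pericyte or smooth muscle markers r = 0.58 (permutation adjusted p = 0.0754), and without the 4 arrays 0.17 and 0.12. The other 8 lists, of granule, pyramidal and inhibitory neurons, astrocytes, microglia, oligodendrocytes, their precursors and choroid plexus, lay between 0.01 and 0.31 (permutation adjusted p of 0.612 to 0.960). Without the 4 arrays none of these 8 passed, and the inhibitory neuron list gave -0.51 (permutation p = 0.0263, adjusted 0.158), the pyramidal list 0.43 (adjusted 0.345) and the oligodendrocyte precursor list -0.31 (adjusted 0.576). Of 9 choroid plexus markers on the array 1 was measured, Ttr. Its highest levels were 10.1 (impaired replicate 7), 9.43 (unimpaired replicate 3) and 10.8 (young replicate 2), beside group medians of 4.78, 4.56 and 4.97. The part of any of these cell types in the Bmp6 difference was not tested.

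The dimmer measured Bmp6 probe set, 1388201_at, separated the groups less. Its lowest, median and highest levels were 4.47, 4.86 and 5.86 in impaired and 4.71, 4.73 and 5.0 in unimpaired rats, against 4.17, 4.70 and 4.74 in young rats. The groups overlapped: 6 young arrays lay above the lowest aged array. Relative to young rats the difference was 0.39 ± 0.15 in impaired and 0.23 ± 0.15 in unimpaired rats. It was 0.16 ± 0.16 in impaired minus unimpaired rats (limma adjusted p = 0.666). The difference between the aged groups did not pass the threshold, and those from young rats, on which Bmp6 was chosen, are a description. Without the 4 meningeal arrays these differences were 0.15, 0.22 and -0.07, in the order given. With group means removed the 2 probe sets correlated at r = 0.61 and rho = 0.39 over 21 arrays (permutation p = 0.0136), and at 0.47 (permutation p = 0.0927) without the 4 arrays.

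Leaving aside both Bmp6 probe sets, whose differences from young rats follow from how the gene was chosen, 7 member probe sets were tested. In impaired minus young rats limma called 0 of 7, where 0.31% of all probe sets were called higher, 0.204% lower and 0.514% in either direction. It called 0 of 7 in unimpaired minus young rats, where 0.198% were called higher and 1.13% in either direction, and 0 of 7 in all aged minus young rats, where 0.402% were called higher and 1.11% in either direction. In impaired minus unimpaired rats limma called 0 of 9 member probe sets and 0% of all tested. There 2199 probe sets had an unadjusted limma p below 0.05. The 9 tested member probe sets include both of Bmp6, so their medians relative to young rats hold values that chose the gene. Their median log2 difference was 0.03 in impaired and -0.01 in unimpaired rats relative to young ones, beside 0.01 and -0.04 over all probe sets. It was 0.16 in impaired minus unimpaired rats and 0.03 in all aged minus young rats, beside 0.05 and -0.01 over all probe sets. Without the 4 meningeal arrays impaired minus unimpaired was -0.00 and -0.07 for Bmp6, -0.24 and 0.31 for Id2, and -0.02 for Id1. It was -0.12 for Id3, 0.05 for Smad1, 0.07 for Bmpr2 and 0.13 for Nog.

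None of the 6 other measured genes passed the test in any comparison. Bmpr2, the type II receptor selective for BMP ligands, was the most variable. On 1376843_at its lowest, median and highest log2 levels were 5.75, 6.49 and 6.91 in impaired and 5.12, 6.18 and 7.32 in unimpaired rats, against 6.27, 6.59 and 7.11 in young rats. The unimpaired group spanned the whole range of the other groups, with an SD of 0.76 against 0.29 in young rats. The difference was -0.21 ± 0.24 in impaired minus young rats (limma adjusted p = 0.783) and -0.40 ± 0.25 in unimpaired minus young rats (limma adjusted p = 0.426). Impaired minus unimpaired was 0.19 ± 0.26 (limma adjusted p = 0.755).

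Nog, which encodes the secreted BMP antagonist Noggin, lay on 1371052_at at 7.48, 7.62 and 7.81 in impaired and 7.37, 7.50 and 7.72 in unimpaired rats, against 7.15, 7.64 and 8.00 in young rats (lowest, median, highest). All aged arrays lay within the young range. Relative to young rats the difference was -0.01 ± 0.09 in impaired rats (limma adjusted p = 0.988) and -0.11 ± 0.10 in unimpaired rats (0.571), and 0.11 ± 0.10 in impaired minus unimpaired rats (0.627).

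Smad1, the signal carrier that BMP receptors phosphorylate, lay on 1389373_at at 8.65, 8.86 and 8.92 in impaired and 8.29, 8.86 and 8.93 in unimpaired rats, against 8.59, 8.86 and 9.12 in young rats. The 3 medians coincide to 2 decimals, and the lowest unimpaired arrays fell below the young range. Relative to young rats the difference was -0.03 in impaired rats (limma adjusted p = 0.936) and -0.13 in unimpaired rats (0.520), and 0.10 in impaired minus unimpaired rats (0.670).

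**Figure D3:**
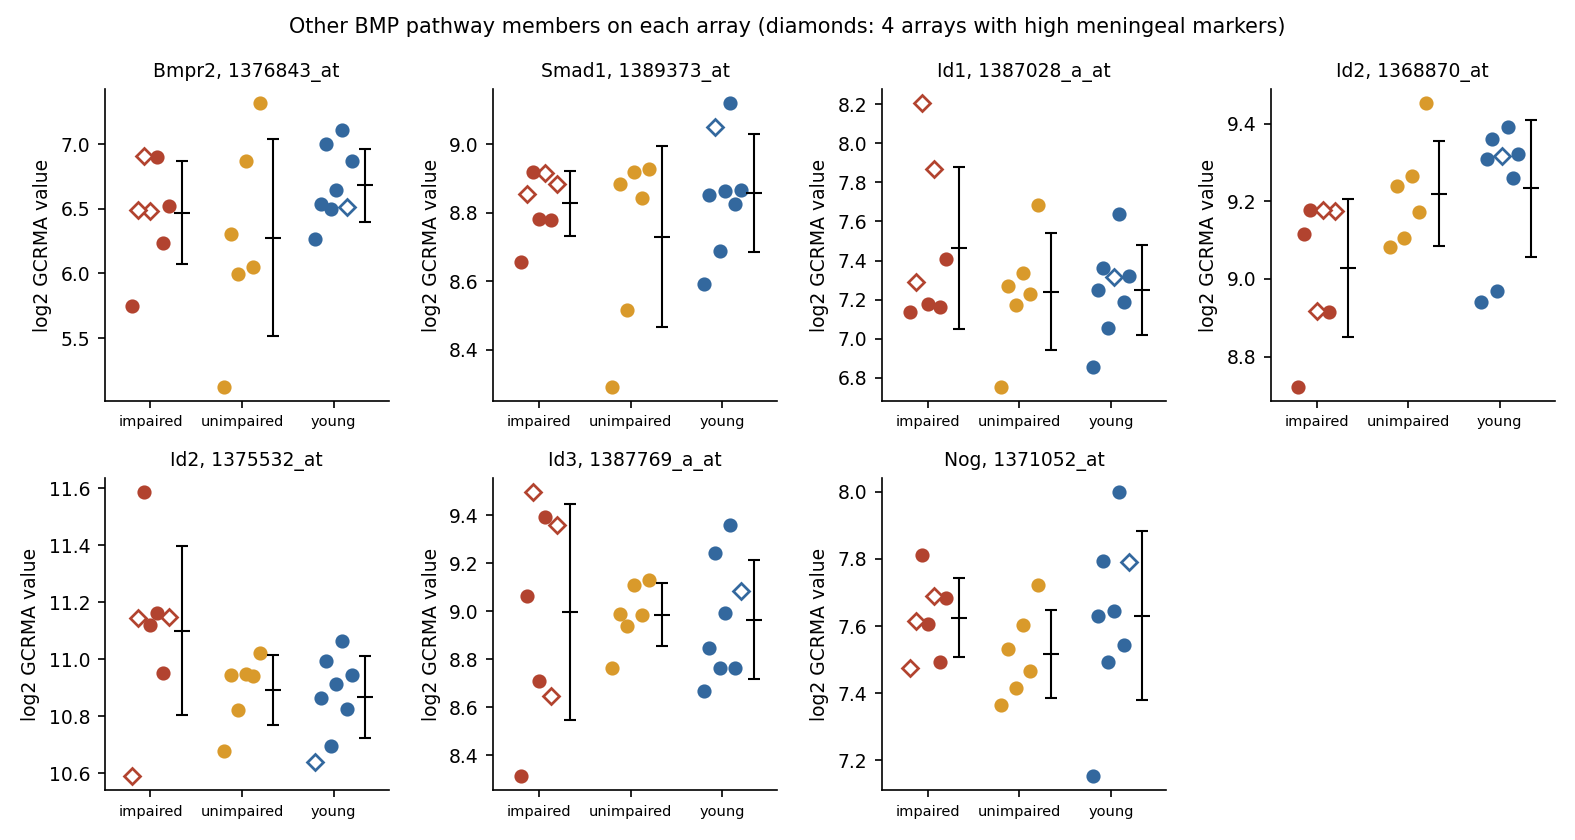
Log2 level on each array of the 7 measured probe sets of Bmpr2, Smad1, Id1, Id2, Id3 and Nog, by group, with group mean and SD as the bar to the right of the points. The groups overlap in every panel. Open diamonds mark impaired replicates 2, 3 and 7 and young replicate 5, and in the Id1 panel replicates 2 and 3 of the impaired group stand highest at 8.21 and 7.87.

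The Id genes are the usual RNA readout of BMP signalling. Id1 on 1387028_a_at ran at 7.14, 7.29 and 8.21 in impaired and 6.75, 7.25 and 7.68 in unimpaired rats, against 6.85, 7.28 and 7.64 in young rats. The medians lie close together, and impaired replicates 2 and 3, both with high meningeal markers, were the only arrays above 7.68. The difference was 0.22 ± 0.16 in impaired minus young rats, with a 95% confidence interval of -0.11 to 0.54 (limma adjusted p = 0.626), and -0.01 ± 0.16 in unimpaired minus young rats (limma adjusted p = 0.986). Impaired minus unimpaired was 0.22 ± 0.17 (limma adjusted p = 0.552). Without the 4 meningeal arrays impaired minus young was -0.02 ± 0.15, and impaired minus unimpaired was -0.02 ± 0.15.

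Id3 on 1387769_a_at lay at 8.31, 9.07 and 9.50 in impaired and 8.76, 8.99 and 9.13 in unimpaired rats, against 8.67, 8.92 and 9.36 in young rats. The impaired arrays spread widest, with an SD of 0.45 against 0.13 in unimpaired and 0.25 in young rats, and took in both other groups. Impaired minus young was 0.03 ± 0.15, with a 95% confidence interval of -0.28 to 0.35 (limma adjusted p = 0.961). Unimpaired minus young was 0.02 (limma adjusted p = 0.962), and impaired minus unimpaired 0.01 (limma adjusted p = 0.982). For all aged minus young rats the 95% intervals were -0.25 to 0.30 for Id3 and -0.18 to 0.39 for Id1.

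The 2 probe sets of Id2 gave differences of opposite sign in impaired rats, and neither passed. On 1368870_at the levels were 8.72, 9.11 and 9.18 in impaired and 9.08, 9.21 and 9.45 in unimpaired rats, against 8.94, 9.31 and 9.39 in young rats. All 7 impaired arrays lay below the young mean, 3 of them below every young array, and the difference was -0.21 ± 0.08 (limma adjusted p = 0.298). On 1375532_at the levels were 10.59, 11.14 and 11.59 in impaired and 10.68, 10.94 and 11.02 in unimpaired rats, against 10.64, 10.89 and 11.06 in young rats. Here 6 of 7 impaired arrays lay above the young mean, 5 of them above every young array, and the difference was 0.23 ± 0.10 (limma adjusted p = 0.336). Unimpaired minus young was -0.01 and 0.02 on the 2 probe sets, and impaired minus unimpaired was -0.19 ± 0.09 and 0.21 ± 0.11 (limma adjusted p of 0.333 and 0.385). With group means removed the 2 probe sets did not correlate detectably (r = -0.01, permutation p = 0.956), so no direction is given for Id2.

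**Figure D4:**
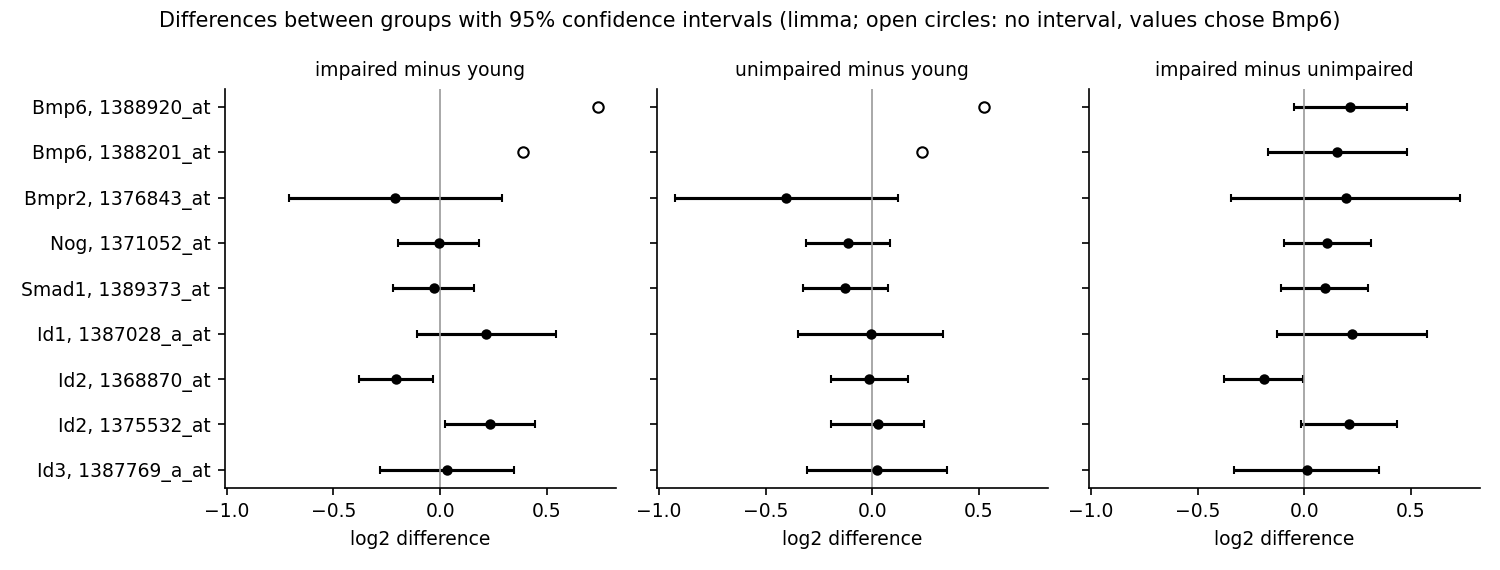
Log2 differences between groups for the 9 measured probe sets, 1 panel per comparison, with 95% confidence intervals from limma that are not adjusted for the number of probe sets. Open circles without an interval are the Bmp6 differences from young rats, on which Bmp6 was chosen (0.74 and 0.39 in impaired, 0.52 and 0.23 in unimpaired rats), and the other genes lie between -0.40 and 0.23.

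Whether rats with more Bmp6 within their group also had more of the other members was asked with group means removed, in 6 relations over 21 arrays. Id1 gave the highest correlation, r = 0.51 and rho = 0.51 (permutation p = 0.0388, adjusted over 6 relations 0.233). It was 0.31 without impaired replicate 2 and young replicate 6, and 0.13 without the 4 meningeal arrays. Id3 gave r = 0.31 and rho = 0.24 (permutation adjusted p = 0.595), Smad1 r = 0.23 and rho = 0.31 (0.595), Bmpr2 r = 0.07 and rho = 0.10 (0.860) and Nog r = -0.12 and rho = 0.01 (0.860). Id2, on its brighter probe set 1375532_at, gave r = -0.03 and rho = 0.12 (permutation adjusted p = 0.937), but r = 0.70 (permutation adjusted p = 0.0391) without the 4 meningeal arrays. No relation passed over all arrays.

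Beyond the members, 81 further genes of the pathway were listed by role, of which 65 are on the array and 36 were tested with 50 probe sets. In all aged minus young rats 19 probe sets were higher and 31 lower, with a median of -0.02, while 43.2% of all tested probe sets were on the higher side. None was called higher, and 2 were called lower, Gdf11 and Acvr2a, where 0.705% of all probe sets were called lower. In impaired minus young rats 27 were higher and 23 lower (55.2% of all probe sets were higher) and none was called. In unimpaired minus young rats 12 were higher and 38 lower (33.95% of all probe sets were higher), with a median of -0.07 beside -0.04 over all probe sets, and Gdf11 alone was called, where 0.936% of all probe sets were called lower. In impaired minus unimpaired rats 39 were higher and 11 lower (72.4% of all probe sets were higher), with a median of 0.05, the same as over all probe sets, and none was called.

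Among ligands, 2 of 11 genes on the array were tested. The others, Bmp2, Bmp3, Bmp5, Bmp7, Bmp8a, Bmp15, Gdf6, Gdf15 and Amh, stayed below the filter. Gdf11, a secreted ligand of the same superfamily that signals mainly through activin type receptors, had lowest, median and highest levels of 8.47, 8.59 and 8.72 in impaired and 8.43, 8.51 and 8.70 in unimpaired rats, against 8.57, 8.81 and 8.90 in young rats. All 7 impaired and all 6 unimpaired arrays lay below the young mean, and the ranges overlapped. It fell by 0.22 ± 0.04 on the log2 scale in all aged minus young rats (limma adjusted p = 0.018), a level 1.16 times lower, and by 0.25 ± 0.05 in unimpaired minus young rats (limma adjusted p = 0.0269). Impaired minus young was -0.18 ± 0.05 (limma adjusted p = 0.119). Without the 4 meningeal arrays all aged minus young was -0.21 (limma adjusted p = 0.0943) and unimpaired minus young -0.25 (0.0718). The call in unimpaired rats was also lost without any 1 of unimpaired replicates 1 and 3 and young replicates 6 and 9 (difference of -0.23 to -0.25). Gdf10 was -0.24 ± 0.17 (limma adjusted p = 0.536).

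Among receptors, 7 of 10 genes on the array were tested with 10 probe sets, 2 higher and 8 lower in all aged minus young rats. Acvr2a, a type II receptor that binds activins and several BMPs, Bmp6 among them, had levels of 6.40, 6.63 and 6.81 in impaired and 6.48, 6.57 and 6.80 in unimpaired rats, against 6.70, 6.85 and 7.24 in young rats. All 7 impaired and all 6 unimpaired arrays lay below the young mean. It fell by 0.30 ± 0.07 in all aged minus young rats (limma adjusted p = 0.034), a level 1.24 times lower. Impaired minus young was -0.32 ± 0.08 (limma adjusted p = 0.0711) and unimpaired minus young -0.29 ± 0.08 (0.0874). The call was kept in 13 of 21 fits that left out 1 array, and lost without impaired replicates 2 or 3, unimpaired replicates 3, 7 or 8 and young replicates 3, 6 or 9 (differences of -0.26 to -0.30, limma adjusted p up to 0.0797), and without the 4 meningeal arrays it was -0.28 (0.109). Acvr2b, its close relative, was 0.38 ± 0.11 in impaired minus young rats (limma adjusted p = 0.118). Rgma, a membrane co-receptor for BMPs, was -0.23 ± 0.07 in unimpaired minus young rats (0.116).

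**Figure D5:**
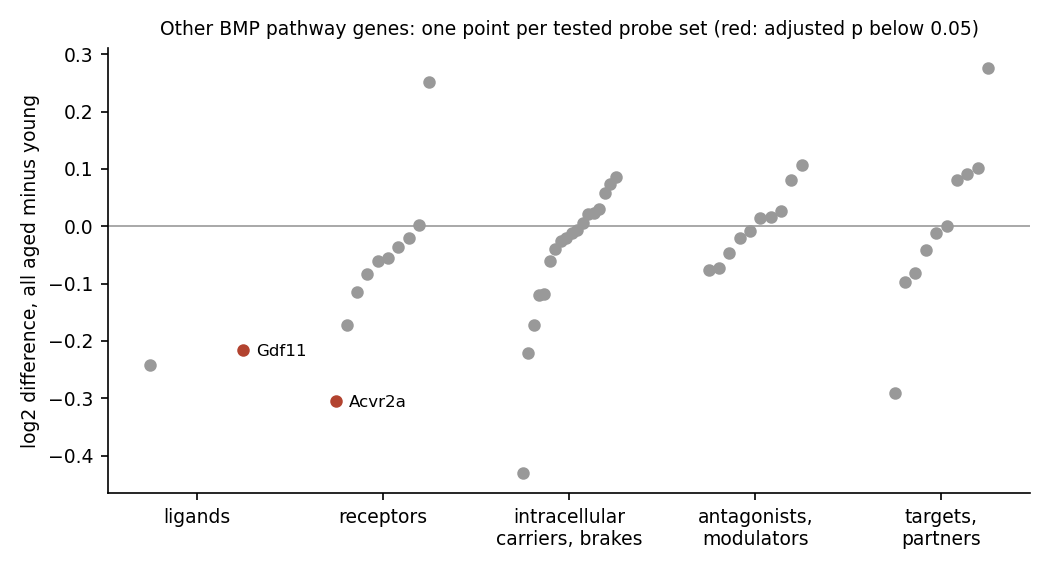
Log2 difference in all aged minus young rats for the 50 tested probe sets of other BMP pathway genes, grouped by role, 1 point each. Red points passed an adjusted p below 0.05: Gdf11 at -0.22 among 2 ligand probe sets and Acvr2a at -0.30 among 10 receptor probe sets, while the values of all roles run from -0.43 to 0.28.

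Among intracellular carriers and brakes, 13 of 15 genes on the array were tested with 18 probe sets, and none was called. Smad4, the shared partner of receptor-activated Smad proteins, differed from young rats by -0.01 ± 0.08 in impaired and by -0.23 ± 0.08 in unimpaired rats (limma adjusted p of 0.980 and 0.178). Smad5, which carries the signal beside Smad1, had 3 tested probe sets at 0.06, -0.17 and -0.02 in all aged minus young rats. In impaired minus unimpaired rats the same probe sets lay at -0.33, 0.01 and 0.28 (limma adjusted p of 0.202, 0.978 and 0.206). Map3k7, the kinase TAK1 of the Smad-independent branch, was 0.18 ± 0.06 in impaired minus young rats (limma adjusted p = 0.21), and its adaptor Tab1 was -0.18 ± 0.06 in unimpaired minus young rats (0.154). Tob1, a repressor of BMP signalling through Smad proteins, was 0.30 ± 0.10 in impaired minus unimpaired rats (limma adjusted p = 0.207). The inhibitory Smad6 stayed below the filter.

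Among secreted and membrane antagonists and modulators, 8 of 17 genes on the array were tested with 10 probe sets, 5 higher and 5 lower in all aged minus young rats, and none was called. Chrd, which encodes the antagonist Chordin, was 0.11 ± 0.04 in all aged minus young rats (limma adjusted p = 0.238). Twsg1, a partner of Chordin, was -0.05 ± 0.04 on its brighter probe set (0.646). Smoc1 was 0.11 ± 0.04 in impaired minus young rats (limma adjusted p = 0.21), and Fstl1, a secreted binder of BMP4, was 0.31 ± 0.10 in impaired minus unimpaired rats on 1371331_at (limma adjusted p = 0.2) and 0.05 ± 0.29 on 1368822_at (0.952). The antagonists Fst, Grem1, Sostdc1 and Bambi stayed below the filter.

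Among targets and partners, 6 of 12 genes on the array were tested with 10 probe sets, 5 higher and 5 lower in all aged minus young rats, and none was called. Id4, the fourth Id gene, was 0.37 ± 0.10 in impaired minus young rats on 1394022_at (limma adjusted p = 0.104), while its 3 other probe sets lay at 0.00, -0.02 and 0.10. Hes5, a repressor usually placed downstream of Notch, was -0.47 ± 0.15 in unimpaired minus young rats (limma adjusted p = 0.122). Hey1 was 0.10 ± 0.06 (0.407) and Tcf12, a partner of basic helix-loop-helix factors, -0.15 ± 0.07 (0.279) in the same comparison. In the TGF-beta and activin branch, 8 of 15 genes on the array were tested with 9 probe sets, and none was called in any of the 4 comparisons.

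The genes whose levels across all 21 arrays were most like those of Bmp6 1388920_at, among 8736 genes with 1 probe set each, were Ccn2 (Pearson r = 0.89), Gstp1 (0.88), Npr2 (0.83), Ptpdc1 (0.83) and Pcdhb17 (0.82). These correlations include the difference between aged and young groups and share the arrays, so they are a description. Ccn2, which encodes connective tissue growth factor, averaged 7.78 ± 0.89 in impaired and 7.0 ± 0.49 in unimpaired rats, against 5.88 ± 0.85 in young rats (SD). The least alike were Sema3c (r = -0.91), Nalf2 (-0.83), Tubb2b (-0.83), Thsd7a (-0.82) and D430041D05Rikl (-0.82). Sema3c, a secreted semaphorin, averaged 6.29 ± 0.47 in impaired and 6.70 ± 0.28 in unimpaired rats, against 8.17 ± 0.32 in young rats, and Tubb2b belongs to the list of immature neuron markers described above. With group means removed the highest were Tmem123 (0.85), Igfbp2 (0.84), Ptgds (0.82), Vim (0.78) and Txnip (0.78), and Igfbp2 and Ptgds are measured meningeal markers. Among pathway genes Acvr2a stood at r = -0.80, rank 8730 of 8736, Gdf11 at -0.58 and Id1 at 0.47, rank 594. Id2 stood at 0.31, Id3 at 0.21, Smad1 at 0.01, Nog at -0.14 and Bmpr2 at -0.16. Acvr2a and Gdf11 were themselves called lower in all aged minus young rats, a difference that these correlations include. With group means removed Acvr2a stood at r = -0.57, rank 8708 of 8736, and Gdf11 at -0.09.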

How the data were processed

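The authors deposited 1 table of log2 probe set values for 24 labelled arrays, summarised with GCRMA (version not given in the sources used here), per the submitters' processing notes. The columns of 3 arrays, 1 per group, are empty, omitted for quality control per the labels, which leaves 21. Groups follow the titles, so young replicate 9, deposited among the unimpaired arrays, is young. The labels give no batch or date. Replicate numbers are not stated to pair animals, and deviations of same-numbered arrays from their group means correlated at -0.118 to 0.200.

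Non-control probe sets (31042 of 31099) with a log2 value above 4 on at least 6 arrays were tested (15177). Groups were compared with limma 3.58.1 in R 4.3.3 (lmFit, eBayes, 3 groups in 1 fit, 18 residual degrees of freedom), with Benjamini-Hochberg adjustment over all probe sets tested and a threshold of 0.05. Differences are ± moderated SE. The number of arrays limits the precision. The scripts were tested on simulated data. Within-group correlations used values minus group means and two-sided permutations within groups (100000). Symbols are those of the platform annotation, and 9 of 9 members matched RefSeq (GRCr8) by gene identifier.

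The members, gene lists and the 4 arrays left out together were chosen with earlier results of these data known. Named were the members, other pathway genes called in any comparison or among the 2 smallest p values of their role, and the 5 genes most and least like Bmp6. Alternatives were other filters (none, or above 6), median centring, quantile normalisation, an intensity trend with robust variance, array weights, only the groups compared, the replicate number as a block, and leaving out arrays.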

Additional observations from a re-analysis of the deposited data

Results flagged for a closer look

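On the dimmer Bmp6 probe set, 1388201_at, impaired replicate 2 stood at a log2 level of 5.86, far from the next impaired array at 5.03. It is the array with the highest meningeal marker level. The gap of 0.83 is 0.60 of the group's range of 1.38, above Dixon's critical value of 0.568 for 7 arrays. It was the only extreme array among the 27 groups of arrays tested for the members, where chance marks about 1 group in 20.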

How the results depend on the processing

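Over the alternatives the Bmp6 1388920_at difference from young rats ran from 0.58 to 0.80 in impaired and from 0.48 to 0.59 in unimpaired rats. These ranges describe the values that chose the gene. Impaired minus unimpaired ran from -0.00 to 0.27. The members other than Bmp6 passed in 0 of 833 combinations of a setting with 1 of 28 results, which all refit the same arrays or a part of them. The number of probe sets called in impaired minus young rats (78) was 33 with no filter, 33 with only the 2 groups compared and 29 without the 4 meningeal arrays, and 36 to 161 with 1 array left out (lowest without impaired replicate 2, highest without young replicate 5). In unimpaired minus young rats (172) it was 67, 69 and 95, and 59 to 219 with 1 array left out (without young replicate 9, without young replicate 1). In impaired minus unimpaired rats (0) it was 1 with only the 2 groups and 0 to 4 with 1 array left out (4 without unimpaired replicate 7). In all aged minus young rats (168) it was 90 with no filter, 86 without the 4 arrays, and 89 to 239 with 1 array left out (without young replicate 6, without young replicate 5). With the replicate block, whose numbers are not stated to pair animals, it was 9 in unimpaired and 76 in all aged rats. The Gdf11 and Acvr2a calls in all aged rats were then lost (limma adjusted p of 0.0598 and 0.108). The split into higher and lower was 31 and 35 after median centring and 56 and 56 after quantile normalisation in impaired rats (47 and 31 as deposited), 64 and 61 after quantile normalisation in unimpaired rats (30 and 142), and 124 and 108 in all aged rats (61 and 107). Gdf11 in unimpaired rats was lost with quantile normalisation (0.109), the replicate block (0.102) and only the 2 groups (0.0669), and gained a call in impaired rats without young replicate 1 (-0.21). Acvr2a was lost in all aged rats with no filter (0.0751) and gained in impaired rats without impaired replicate 4 (-0.36). The correlation of Bmp6 with Id2 turned from -0.03 to 0.70 without the 4 arrays and to 0.00077 after median centring, and that with Nog from -0.12 to 0.139 without the 2 farthest arrays. The cause of these changes was not tested.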
